A study of Mus musculus with 6 samples.

Results

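The glutathione, thioredoxin and antioxidant genes of mouse gastrocnemius muscle were followed in 6 RNA-seq libraries. They were taken by symbol from the deposited count table, as every gene whose symbol is Gsta, Gstm, Gstp, Gstt, Gsto, Gstk, Gpx, Prdx, Txn or Sod followed by a digit, together with Gclc, Gclm, Gsr, Gss, Cat, Nqo1, Hmox1, Srxn1 and Nfe2l2. Of 24054 genes in the table, 50 symbols matched, and 40 had at least 30 counts summed over the 6 libraries and were kept. The 10 left out, with 0 to 15 counts each, were Gpx2, Gpx2-ps1, Gpx5, Gpx6, Gsta1, Gsta2, Gstm3, Gsto2, Gstt4 and Prdx6b.

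The libraries came from flash-frozen gastrocnemius, a calf muscle, of male C57BL/6 mice. The study describes this muscle as a mix of slow-twitch (type I) and fast-twitch (type II) fibres. In the 3 MI4KO libraries the gene for the transcription factor IRF4 was deleted by a Cre recombinase driven by the Myl1 gene, which is active in skeletal muscle fibres, and in the 3 MI4OE libraries the same Cre switched on an Irf4 transgene at the Rosa26 locus. Both groups thus carried Myl1-cre, neither was a wild-type or flox control, and each difference below is between loss and excess of IRF4. The labels give all 6 libraries a high fat diet, while the study describes mice on chow, and neither gives an age for these animals or says that each library is a separate mouse, so p-values measure the spread between libraries. The study asked how IRF4 in muscle changes the fuel that the muscle holds and uses.

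Muscle fibres produce superoxide and hydrogen peroxide as they respire and contract. Superoxide dismutases turn superoxide into hydrogen peroxide, which is removed by catalase, by glutathione peroxidases that spend reduced glutathione, and by peroxiredoxins that are recharged by thioredoxin. Glutathione S-transferases join glutathione to reactive compounds, and the transcription factor NRF2 (gene Nfe2l2) drives many of these genes through the antioxidant response element.

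Total expected counts per library ran from 18828605 in MI4OE replicate 1 to 29239585 in MI4KO replicate 3. Levels are given as CPM, each gene's counts relative to the TMM-scaled library size, and 3 counts, taken as the limit of detection, corresponded to 0.101 to 0.148 CPM. The TMM factor was 0.8639 in MI4KO replicate 1 and 0.9976 to 1.0804 in the other libraries. Irf4 had 6, 0 and 2 counts in MI4KO and 2864, 10557 and 5911 in MI4OE, as the labels would have it. Muscle fibre genes such as Acta1, Ckm and Myh4 were abundant throughout. Their list of 8 genes summed to 164728 CPM in MI4OE replicate 1 and 226918 to 305149 CPM in the other libraries. MI4OE replicate 1 stood apart: the summed level of 10 slow-fibre genes, all measured, was 7387 CPM in it and 55.3 and 712 CPM in MI4OE replicates 2 and 3, against 41.5 to 144 CPM in MI4KO. A list of 5 oxidative fast-fibre genes summed to 974, 581 and 3408 CPM in MI4KO and 20519, 690 and 4773 CPM in MI4OE. MI4KO replicate 3 and MI4OE replicate 3 were thus also high in that list. The adipocyte list of 10 genes summed to 2007 to 3595 CPM in MI4KO and 693 to 1498 CPM in MI4OE, but most of this was Car3, which muscle fibres also express. Without Car3, left out after its values were seen, the sums were 185, 406 and 1006 CPM in MI4KO and 274, 142 and 115 CPM in MI4OE, and the groups overlapped. Most of what remained in MI4OE replicate 1 was Fabp4, which endothelium also expresses. Without both genes, a choice also made after their values were seen, the sums were 57.4, 194 and 608 CPM in MI4KO and 14.4, 37.9 and 11.04 CPM in MI4OE. Fibroblast genes summed to 219.7 to 362 CPM in MI4KO and 382 to 513.5 CPM in MI4OE, with 6 of 7 higher in MI4OE, each at an unadjusted p under 0.05. Endothelial genes summed to 112 to 179 CPM and 204 to 368 CPM, with 8 of 8 higher, 4 of them at that threshold. The part of these cell types in the members' values was not tested. In bulk muscle, fewer cells of a type and less RNA per cell cannot be told apart.

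Matches to the core of the antioxidant response element were looked for in the promoters of the members. Promoter sequences from RefSeq (GRCm38.p6), 250 bases before to 50 after a transcript start, were listed for 33 of the 40 members and not for Sod3, Prdx6, Gclc, Gsr, Gsta4, Gstt2 and Hmox1. The core TGACNNNGC, which reads GCNNNGTCA on the opposite strand, was found on either strand in 8 of the 33 members, or 24.2%, and in 14.0% of all 27025 symbols listed. A match is a description of letters and shows no binding. The core can hold the AP-1 site TGACTCA, as it did in Prdx1. These 6 stretches are shown because they place matches to the core beside the genes whose values follow. Each is written on the strand of the gene, 5′ to 3′, with the core in capitals. Gsta3 (chr1:21240438-21240498, plus strand), Gclm (chr3:122245397-122245457, plus strand), Prdx1 (chr4:116685440-116685500, plus strand), Sod1 (chr16:90220680-90220740, plus strand) and Nfe2l2 (chr2:75704869-75704913, minus strand) have it upstream of the start, and Srxn1 (chr2:152105542-152105570, plus strand) downstream of it.
Gsta3: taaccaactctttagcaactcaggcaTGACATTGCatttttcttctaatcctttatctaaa
Gclm: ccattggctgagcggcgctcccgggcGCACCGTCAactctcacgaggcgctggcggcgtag
Prdx1: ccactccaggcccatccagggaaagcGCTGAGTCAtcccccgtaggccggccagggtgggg
Sod1: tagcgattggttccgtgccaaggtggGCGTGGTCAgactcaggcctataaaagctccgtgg
Nfe2l2: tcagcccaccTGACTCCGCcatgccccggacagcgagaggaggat
Srxn1: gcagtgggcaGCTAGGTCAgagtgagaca
The other members with the core were Gstm5 and Gstm7. The first base of the core lay 121 bases before the start in Gsta3, 134 in Gclm, 133 in Prdx1, 56 in Sod1 and 240 in Nfe2l2, and at base 29 in Srxn1.

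The core of the interferon-stimulated response element, a repeat of GAAA across a gap of 2 bases to which IRF factors bind, was searched in the same windows. It was found in 2 of the 33 members, Gstm6 and Gstt1, or 6.1%, and in 4.0% of all symbols listed. In Gstt1 (chr10:75797881-75797942, minus strand) it lay on the opposite strand, with its first base 185 bases before the start, and the stretch is shown as the clearest case upstream of a start.
Gstt1: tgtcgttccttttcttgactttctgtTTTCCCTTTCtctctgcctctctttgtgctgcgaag
Gstt1 had 2.70, 4.002 and 7.29 CPM in MI4KO replicates 1, 2 and 3 and 7.03, 5.10 and 4.68 CPM in MI4OE, so that the groups overlapped. Its log2 fold change, MI4OE minus MI4KO, was 0.26 ± 0.37 (SE, standard error; adjusted p = 0.903, edgeR quasi-likelihood). No match in the other windows says only that these letters were not there.

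Levels were compared between genes in TPM, which corrects for transcript length. Gpx4, the peroxidase of membrane lipid hydroperoxides, was the most abundant member, with a mean of 789 TPM over the 6 libraries. Sod1 followed with 513 TPM, Gstp1 with 471 TPM, Prdx5 with 388 TPM and Gpx3 with 258 TPM. The ranges of neighbours in this order overlapped, as in Sod1, with 427 to 640 TPM, and Gstp1, with 429 to 510 TPM.

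The 40 members together made up 3864, 4048 and 4754 TPM in MI4KO and 5541, 4021 and 4417 TPM in MI4OE. MI4OE replicate 1 was the highest and the remaining libraries of the groups overlapped. The lowest member means were those of Gstm6, with 0.315 TPM, and Gsta3, with 0.940 TPM. Gpx3 had the widest relative spread among the 5 most abundant members, from 94.1 TPM in MI4KO replicate 1 to 351 TPM in MI4KO replicate 3.

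**Figure D1:**
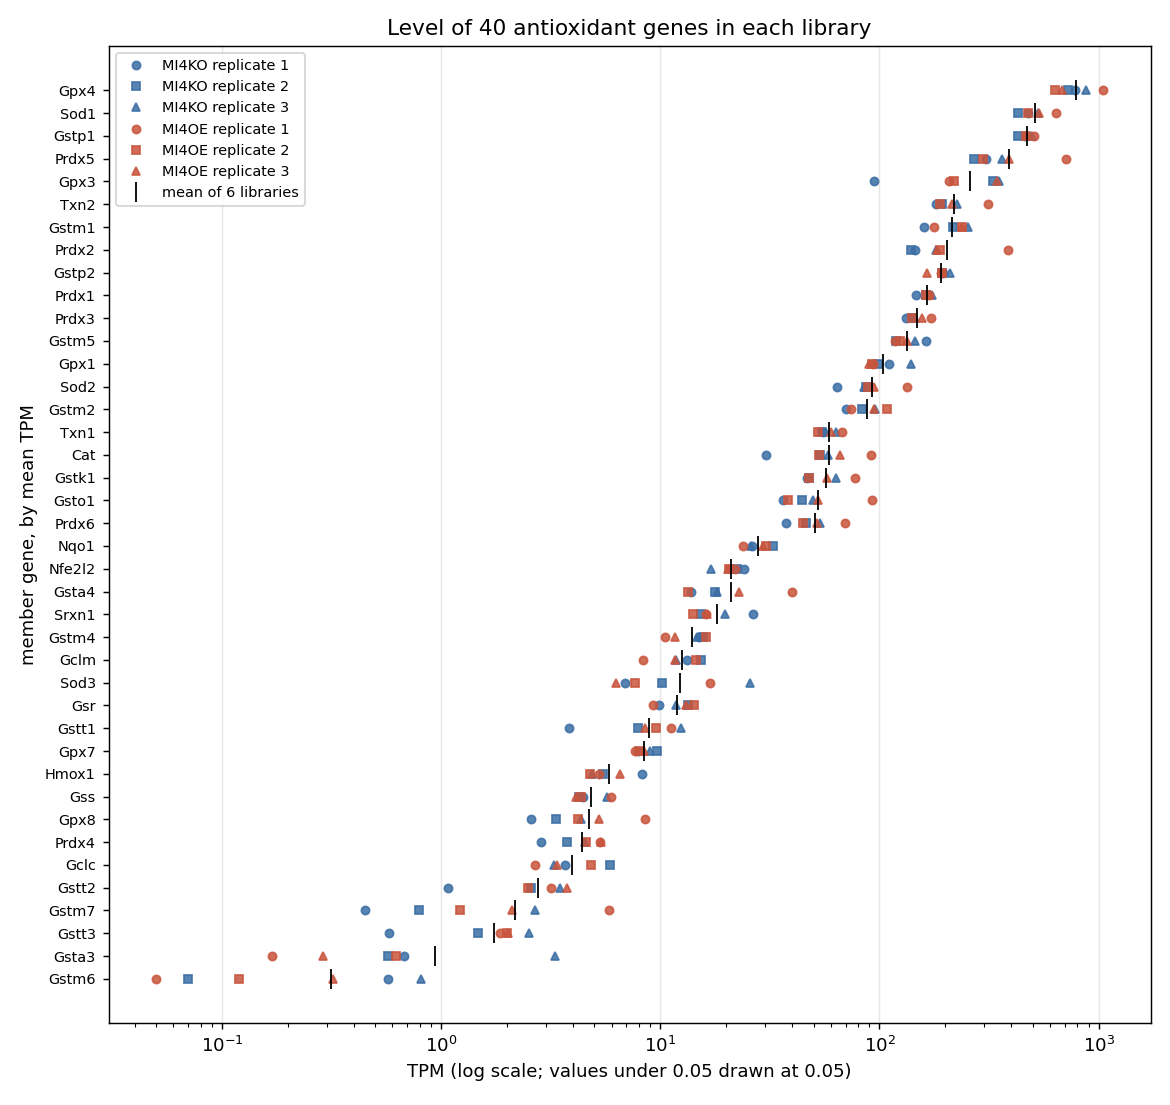
Level of each of the 40 kept members in TPM on a log axis, 1 row per gene in order of the mean over 6 libraries, with a point for each library coloured by genotype and shaped by replicate. Gpx4 leads at a mean of 789 TPM, and MI4OE replicate 1 lies to the right of the other points in genes such as Prdx5 and Prdx2.

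The comparison of genotypes asked which antioxidant genes differed between loss and excess of IRF4. Of the 40 members, 39 could be tested with the 12660 genes of the whole table, and Gstm6 was too low. None of the 39 passed an adjusted p of 0.05 with edgeR's quasi-likelihood test, where 0.0237% of all genes tested did, and none passed with DESeq2 (0.877% of all genes) or edgeR's exact test (0.853%). At an unadjusted p under 0.05, 1 member, Gsta3, was past the threshold (2.56% of the members, against 7.58% of all genes). The same gene alone met the study's own rule, 1.5-fold with an unadjusted p under 0.05, against 6.64% of all genes in either direction and 2.28% lower in MI4OE. The groups did not overlap in 1 member, Gpx7, against 12.9% of all genes in either direction and 5.48% lower in MI4OE. That count depends on the scale: on TPM, compared after the data were seen, Gpx7 overlapped and 4 other members did not, Gpx1 being lower in MI4OE and Sod2, Prdx2 and Prdx4 higher. This was 10.3% of the members, against 11.2% of all genes in either direction, 2.70% lower and 8.45% higher.

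The median log2 fold change over the 39 members was -0.0081, and that over all genes tested was -0.000043. Members were higher in MI4OE in 18 cases and lower in 21, with log2 fold changes from -2.15 to 1.21. For 24 of the 39 the 95% interval of the difference lay within a 2-fold change either way, as it did for 7895 of the 12660 genes, and for 8 it lay within 1.5-fold, as for 3285 of all genes. For the members outside the first count, a 2-fold difference lay within the error of these 6 libraries.

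The members were then followed library by library. MI4OE replicate 1 held the highest level of 18 of the 39 members, or 46.2%, and of 31.5% of all genes tested, and MI4KO replicate 2 held the lowest level of 16 members, or 41.0%, and of 20.8% of all genes. On TPM, MI4OE replicate 1 was highest for 17 members, or 43.6%, and 24.7% of all genes. MI4KO replicate 2 was lowest on that scale for 4 members, or 10.3%, and 7.9% of all genes. MI4KO replicate 1 was lowest for 17 members, or 43.6%, and 45.7% of all genes. Without MI4OE replicate 1 the median over the members was -0.071, with 14 higher in MI4OE and 25 lower, and 10 members changed direction. Over all 12660 genes the median in that fit was -0.019, with 5940 higher and 6720 lower. Leaving out each of the other libraries gave member medians from -0.039, without MI4KO replicate 2, to 0.13, without MI4KO replicate 3. MI4OE replicate 1 was also the library with the highest slow-fibre sum, and the part of fibre type in these values was not tested.

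**Figure D2:**
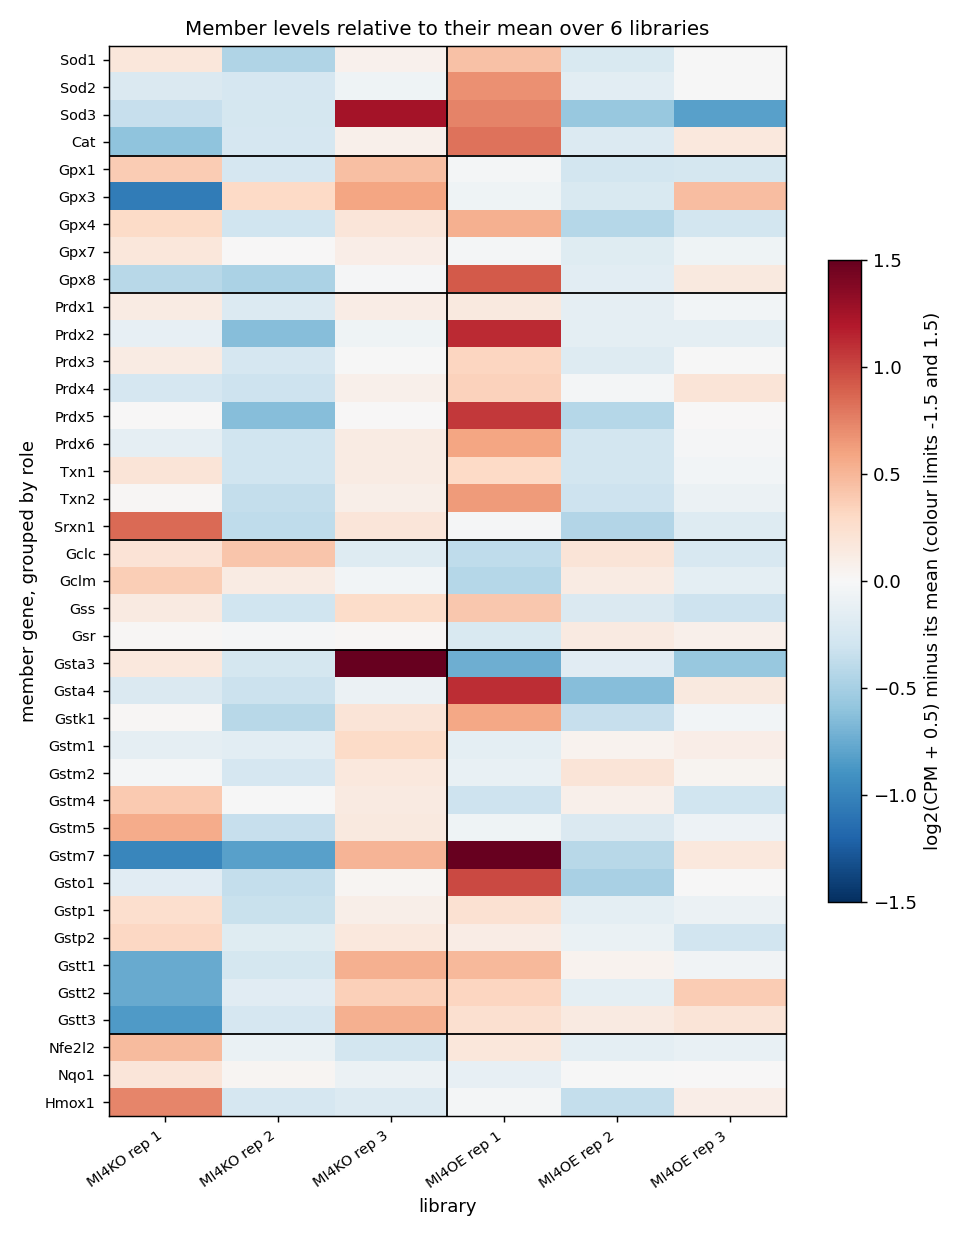
Level of the 39 tested members in each library, as log2(CPM + 0.5) minus the gene's mean over the 6 libraries, with genes in rows grouped by role and MI4KO libraries left of the vertical line. Red cells collect in the column of MI4OE replicate 1, which holds the highest level of 18 members.

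**Figure D3:**
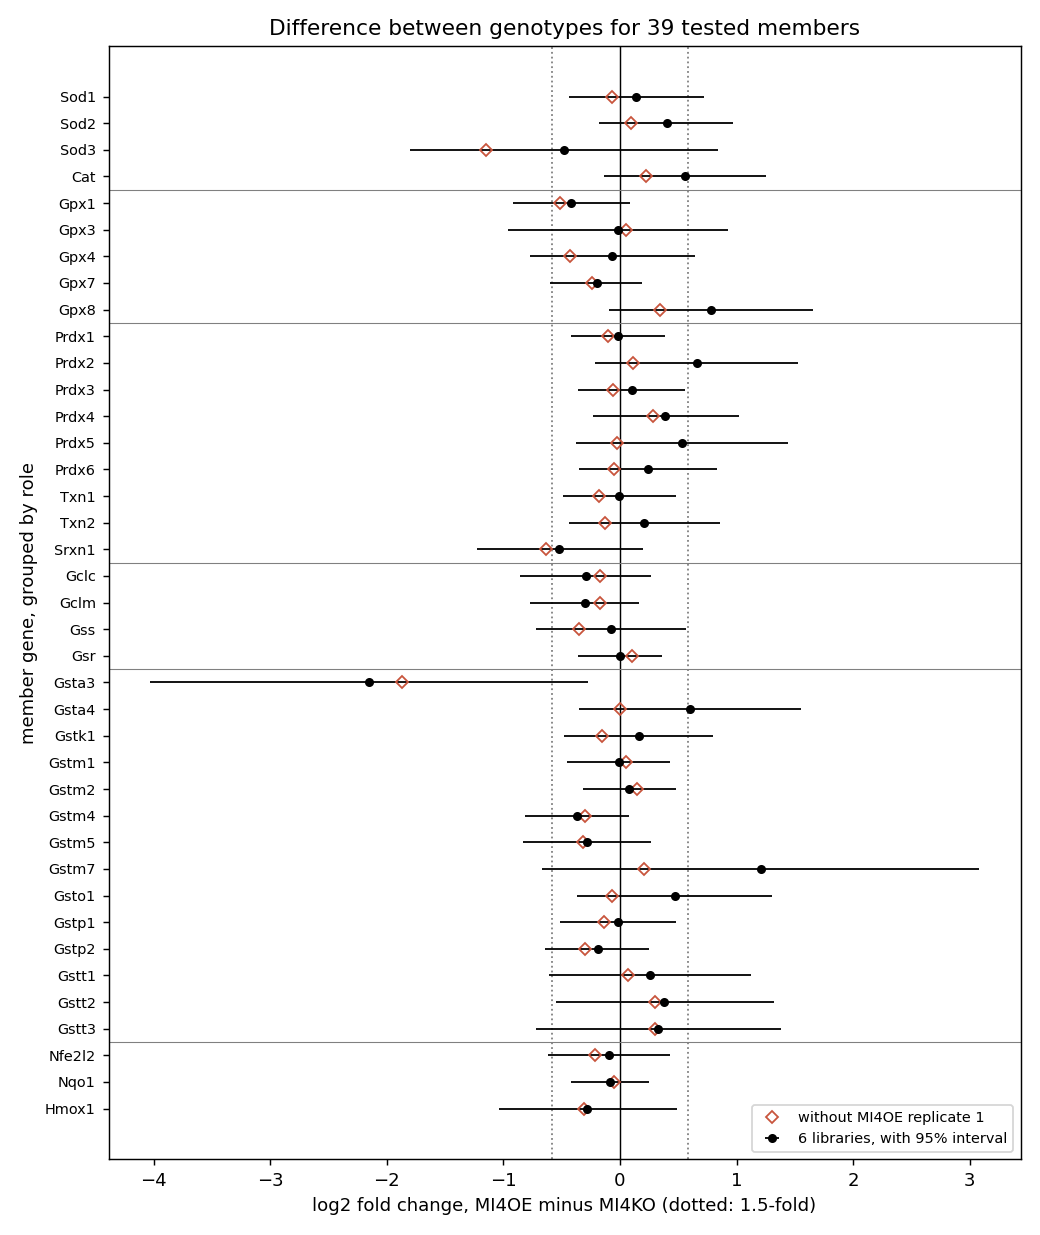
Log2 fold change (MI4OE minus MI4KO) of the 39 tested members with its 95% interval as a black point and bar, and the value without MI4OE replicate 1 as an open diamond; dotted lines mark 1.5-fold. The interval of Gsta3 alone leaves out 0, and the diamonds of Prdx2, Prdx5, Gsta4 and Gsto1 lie near 0.

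Among the superoxide dismutases, the cytosolic copper-zinc enzyme Sod1 had 192, 125 and 178 CPM in MI4KO replicates 1, 2 and 3 and 231, 146 and 170 CPM in MI4OE replicates 1, 2 and 3; values below follow this order. Its means were 165 ± 35.6 CPM for MI4KO (SD, n = 3) and 182 ± 43.9 CPM for MI4OE (SD, n = 3). The groups overlapped, and the log2 fold change was 0.14 with a 95% interval from -0.44 to 0.72. Sod2, the manganese enzyme of mitochondria, had 182, 178 and 202 CPM in MI4KO and 340, 190 and 211 CPM in MI4OE. One library, MI4OE replicate 1, carried most of its mean difference, since the log2 fold change was 0.40 (SE 0.25) in all libraries and 0.096 without it. On TPM the groups did not overlap, with 64.1, 86.7 and 85.1 TPM in MI4KO and 134, 88.2 and 94.9 TPM in MI4OE. Counts of Sod2 were not all whole numbers, which shows that some of its reads were shared with other transcripts.

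Sod3, the extracellular enzyme, had 10.2, 10.8 and 31.8 CPM in MI4KO and 22.2, 8.63 and 7.24 CPM in MI4OE. MI4KO replicate 3 and MI4OE replicate 1 were high and the other 4 libraries were close together. Its spread between libraries of a group, 0.87 on the log2 scale, was above that of 97.9% of all genes tested. The log2 fold change was -0.48 (SE 0.57), -1.15 without MI4OE replicate 1 and 0.25 without MI4KO replicate 3.

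Cat, the catalase of peroxisomes, had 56.5, 72.3 and 90.7 CPM in MI4KO and 152, 74.8 and 96.1 CPM in MI4OE. Its means were 73.2 ± 17.1 CPM (SD, n = 3) and 108 ± 39.8 CPM (SD, n = 3). The groups overlapped, with MI4OE replicate 1 the highest and MI4KO replicate 1 the lowest. A log2 fold change of 0.56 (SE 0.30) had an adjusted p of 0.730 (edgeR quasi-likelihood). Without MI4OE replicate 1 the log2 fold change was 0.22, and without MI4OE replicate 2 it was 0.76 with an unadjusted p of 0.0304. Unadjusted p-values were 0.0687 to 0.3545 without any other library.

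Of the 5 glutathione peroxidases, 4 had log2 fold changes below 0 and none passed an adjusted p of 0.05. Without MI4OE replicate 1 there were 3 below 0 and 2 above, and Gpx3 and Gpx4, whose values were near 0, changed direction in 7 and 4 of the 16 alternatives. Gpx1, the cytosolic peroxidase, had 78.8, 50.4 and 82.6 CPM in MI4KO and 59.1, 49.6 and 49.95 CPM in MI4OE. MI4KO replicate 2 lay among the MI4OE libraries and the other 2 MI4KO libraries above them, while on TPM, with 98.2 to 139 in MI4KO and 89.8 to 93.4 in MI4OE, the groups did not overlap. The log2 fold change of Gpx1 was -0.42 ± 0.22 (SE; adjusted p = 0.726, edgeR quasi-likelihood). Its unadjusted p was 0.0940 with all libraries and 0.00981 without MI4KO replicate 2, when the log2 fold change was -0.62. Leaving out any other library gave -0.51 to -0.30 with unadjusted p-values from 0.0646 to 0.260.

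Gpx3, which is secreted into plasma, had 101, 256 and 315 CPM in MI4KO and 199, 178 and 287 CPM in MI4OE. Its group means were close, at 224 ± 111 CPM (SD, n = 3) and 221 ± 58.0 CPM (SD, n = 3), and the 95% interval of the log2 fold change, from -0.96 to 0.93, was wide. MI4KO replicate 1, the lowest library for Gpx3, was in the upper part of the range for Gpx1. Gpx4 had 504, 337 and 469 CPM in MI4KO and 601, 308 and 342 CPM in MI4OE. The highest and the lowest library of Gpx4 were both MI4OE libraries, and its log2 fold change was -0.067 with all libraries, and from -0.43 without MI4OE replicate 1 to 0.11 without MI4OE replicate 2.

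Gpx7 and Gpx8 act in the endoplasmic reticulum. Gpx7 had 6.67, 5.86 and 6.31 CPM in MI4KO and 5.71, 5.10 and 5.57 CPM in MI4OE, so that every MI4KO library was above every MI4OE library. On TPM the groups overlapped, with 7.95, 9.68 and 9 TPM in MI4KO and 7.63, 8.02 and 8.47 TPM in MI4OE. Its means were 6.28 ± 0.405 CPM (SD, n = 3) and 5.46 ± 0.315 CPM (SD, n = 3), and the log2 fold change was -0.20 ± 0.17 (SE; adjusted p = 0.845, edgeR quasi-likelihood). Gpx7 was among the steadiest genes, with a spread within groups of 0.082 on the log2 scale that was above that of 3.0% of all genes. Gpx8 had 1.66 to 2.49 CPM in MI4KO and 2.20 to 5.21 CPM in MI4OE, with a log2 fold change of 0.78 (SE 0.38), and 0.34 without MI4OE replicate 1.

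Of the 9 peroxiredoxins, thioredoxins and sulfiredoxin, the 8 other than Srxn1 were all highest in MI4OE replicate 1 and lowest in MI4KO replicate 2 on the CPM scale. On TPM 6 of the 9 were highest in MI4OE replicate 1, 2 were lowest in MI4KO replicate 2 and 5 were lowest in MI4KO replicate 1, where 45.7% of all genes were lowest. With all libraries 6 of the 9 were higher in MI4OE, and their median log2 fold change was 0.21. Without MI4OE replicate 1, 2 of the 9 were higher and the median was -0.058. None of the 9 passed an unadjusted p of 0.05.

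Prdx2, a cytosolic peroxiredoxin abundant in red blood cells, had 91.5, 63.6 and 95.4 CPM in MI4KO and 216, 90.2 and 90.0 CPM in MI4OE. MI4OE replicate 1 exceeded every other library more than 2-fold, and the other MI4OE libraries lay within the MI4KO range on this scale. On TPM they lay just above it, at 189 and 182 TPM against 139.7 to 181 TPM in MI4KO. In all libraries the log2 fold change was 0.66 (SE 0.37), and 0.11 without that library. The summed level of 9 listed erythrocyte genes, of which Hba-a2 and Hbb-bs had 0 counts throughout, was 777 CPM in MI4OE replicate 1 and 193 to 317 CPM in the other 5 libraries. Its part in the Prdx2 values was not tested.

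Prdx5, found in mitochondria, peroxisomes and cytosol, had 133, 84.5 and 132 CPM in MI4KO and 275, 97.5 and 132 CPM in MI4OE. It repeated the picture of Prdx2, with a log2 fold change of 0.53 in all libraries and -0.021 without MI4OE replicate 1. Prdx3, the mitochondrial peroxiredoxin, had 135, 104 and 123 CPM in MI4KO and 155, 108 and 124 CPM in MI4OE. The log2 difference was 0.10 with a 95% interval from -0.36 to 0.56.

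Prdx1, a cytosolic peroxiredoxin, was even across libraries, with 147, 117 and 145 CPM in MI4KO and 149, 123 and 131 CPM in MI4OE. Its log2 fold change was -0.019 with a 95% interval from -0.42 to 0.39, which lies within 1.5-fold. Prdx6, which uses glutathione, had 63.6, 56.7 and 76.2 CPM in MI4KO and 106, 57.4 and 69.0 CPM in MI4OE, with a log2 fold change of 0.24 (SE 0.25). MI4OE replicate 1 was again the highest and the other libraries overlapped. Prdx4, of the endoplasmic reticulum, was low, with 1.88, 1.78 and 2.49 CPM in MI4KO and 3.10, 2.27 and 2.74 CPM in MI4OE. The groups overlapped on CPM and did not on TPM, with 2.87 to 4.53 TPM in MI4KO and 4.57 to 5.34 TPM in MI4OE, and the log2 fold change was 0.39 (SE 0.27).

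Txn1, the cytosolic thioredoxin, had 39.6, 28.1 and 37.8 CPM in MI4KO and 42.8, 28.5 and 33.6 CPM in MI4OE. Its means of 35.1 ± 6.17 CPM (SD, n = 3) and 34.96 ± 7.21 CPM (SD, n = 3) were nearly equal, with a 95% interval of the log2 fold change from -0.49 to 0.48. Txn2, the mitochondrial thioredoxin that recharges Prdx3, had 161, 124 and 169 CPM in MI4KO and 248, 128 and 150 CPM in MI4OE. Here too MI4OE replicate 1 was highest, and the log2 fold change was 0.21 with all libraries and -0.13 without it.

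Srxn1, the sulfiredoxin that repairs overoxidised peroxiredoxins, was the exception in this group. It had 54.9, 23.0 and 34.3 CPM in MI4KO and 29.9, 22.1 and 26.3 CPM in MI4OE. MI4KO replicate 1 was high, MI4KO replicate 2 lay within the MI4OE range, and the MI4OE libraries were close together. The log2 fold change was -0.52 ± 0.31 (SE; adjusted p = 0.765, edgeR quasi-likelihood). It was -0.14 without MI4KO replicate 1, and -0.79 with an unadjusted p of 0.0185 without MI4KO replicate 2, the only one of these fits with a p under 0.05.

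**Figure D4:**
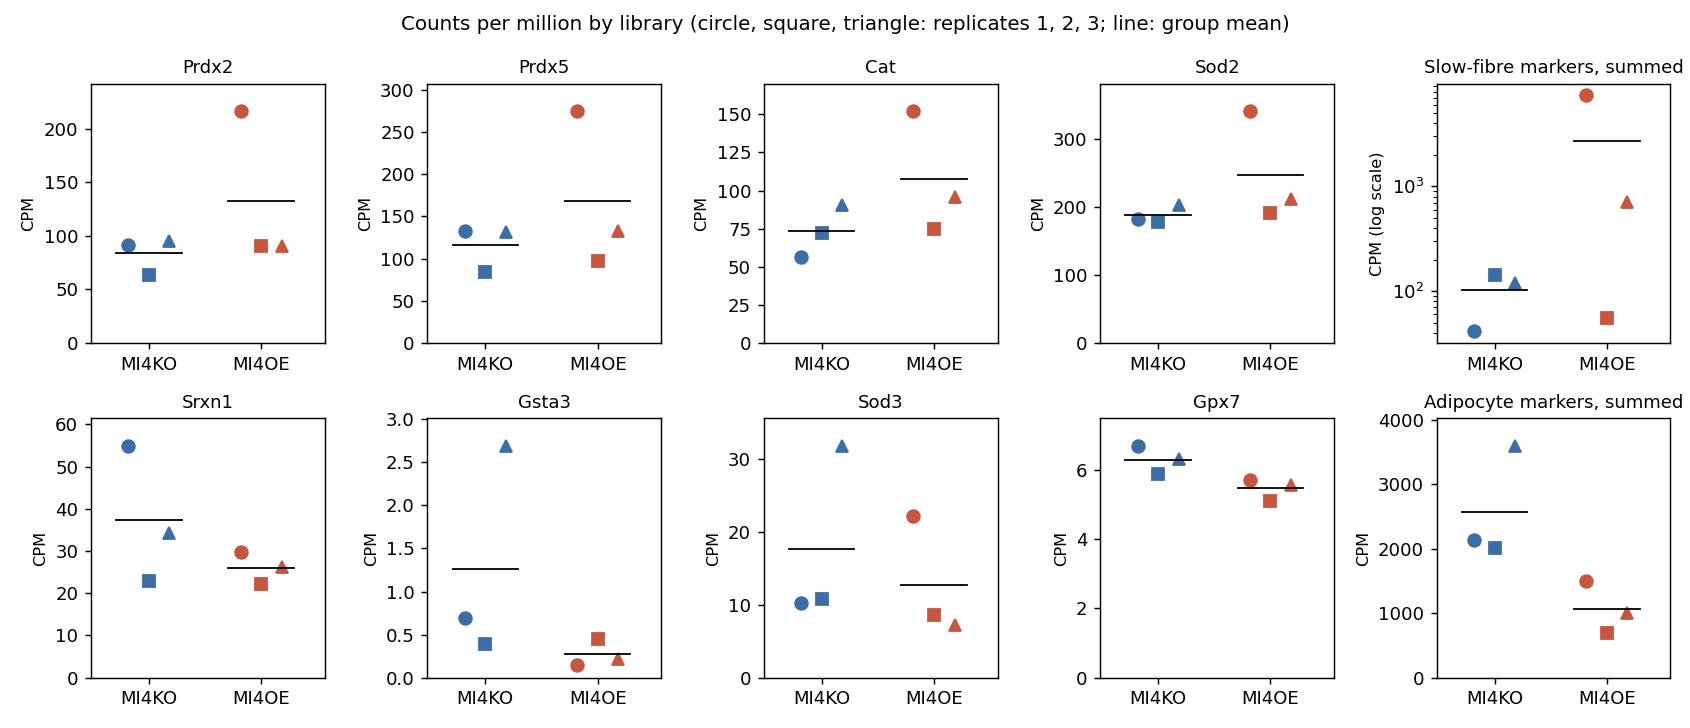
CPM by library of 8 members and of the summed slow-fibre and adipocyte markers, with circles, squares and triangles for replicates 1, 2 and 3 and a line at each group mean; the slow-fibre axis is a log scale and the others start at 0. MI4OE replicate 1 stands above all other libraries for Prdx2, Prdx5, Cat, Sod2 and the slow-fibre sum, and MI4KO replicate 3 does so for Gsta3, Sod3 and the adipocyte sum. The adipocyte sum is over all 10 listed genes, and most of it is Car3, which muscle fibres also express.

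The 4 genes of glutathione synthesis and recycling all had log2 fold changes below 0, from -0.30 to -0.0019, and none was past an unadjusted p of 0.05. Gss and Gsr, whose values were near 0, each changed direction in 4 of the 16 alternatives, and Gsr was at 0.10 without MI4OE replicate 1. Gclc, the catalytic subunit of the first enzyme of glutathione synthesis, had 9.33, 10.8 and 6.92 CPM in MI4KO and 6.05, 9.26 and 6.71 CPM in MI4OE. Gclm, the modifier subunit of that enzyme, had 19.8, 16.6 and 14.8 CPM in MI4KO and 11.2, 16.6 and 13.7 CPM in MI4OE. For both subunits MI4OE replicate 1 was the lowest library and the groups overlapped. Their log2 fold changes were -0.29 for Gclc and -0.30 for Gclm, with standard errors of 0.24 and 0.20, and each was -0.17 without MI4OE replicate 1.

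Gss, which completes glutathione, had 6.06, 4.36 and 6.75 CPM in MI4KO and 7.38, 4.65 and 4.33 CPM in MI4OE, with a log2 fold change of -0.074 and a 95% interval from -0.72 to 0.57. Gsr, which reduces oxidised glutathione, had 19.3, 18.9 and 19.4 CPM in MI4KO and 16.2, 21.1 and 20.1 CPM in MI4OE. The MI4KO libraries of Gsr were almost equal and lay inside the MI4OE range. Its log2 fold change of -0.0019 had a 95% interval from -0.36 to 0.36, within 1.5-fold either way.

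Among the 15 kept glutathione S-transferases, Gsta3, an alpha-class enzyme, was the member past the unadjusted threshold. It had 17, 10 and 80 counts in MI4KO and 3, 13 and 5 counts in MI4OE, which are 0.696, 0.396 and 2.69 CPM and 0.148, 0.454 and 0.221 CPM. MI4KO replicate 3 was far above the rest, MI4OE replicates 1 and 3 were near the limit of detection, and the groups overlapped because MI4OE replicate 2 lay above MI4KO replicate 2. The log2 fold change was -2.15 ± 0.81 (SE; unadjusted p = 0.0303, adjusted p = 0.596, edgeR quasi-likelihood).

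Without MI4KO replicate 3 the log2 fold change of Gsta3 was -0.95 with an unadjusted p of 0.188. Leaving out MI4OE replicate 1 or MI4OE replicate 3 gave unadjusted p-values of 0.0769 and 0.0799, also no longer under 0.05. MI4KO replicate 3 also held the highest adipocyte sum, 3595 CPM or 1006 CPM without Car3, and the highest sum of 7 hepatocyte genes, 51.4 CPM, against 0.177 to 4.04 CPM in the other 5 libraries. Alb, the defining gene of that list, had 29.5 CPM in MI4KO replicate 3 and 0 to 2.73 CPM elsewhere. The part of other tissue in the Gsta3 difference was not tested.

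The transferases with the highest mean TPM were the pi-class genes Gstp1 and Gstp2 and the mu-class genes Gstm1, Gstm5 and Gstm2. Gstm4, Gstm7 and Gstm6, also of the mu class, were low, with means of 13.96, 2.18 and 0.315 TPM. Gstp1 had 221, 148 and 198 CPM in MI4KO and 217, 168 and 175 CPM in MI4OE. Gstp2, its near-identical neighbour, had 94.4, 67.2 and 84.8 CPM in MI4KO and 82.5, 71.0 and 62.2 CPM in MI4OE. Both genes overlapped between groups, with log2 fold changes of -0.015 for Gstp1 and -0.19 for Gstp2. The counts of this pair were partly shared by RSEM and the split is uncertain, whereas their sum of 315, 215 and 282 CPM in MI4KO and 299.5, 239 and 237 CPM in MI4OE does not depend on it.

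Gstm1 had 143, 141 and 192 CPM in MI4KO and 142, 162.5 and 168 CPM in MI4OE. Its log2 fold change of -0.012 had a 95% interval from -0.45 to 0.43. Fractional counts also occurred in Gstm2, Gstm4, Gstm5 and Gstm6, so the values of single mu-class genes are uncertain. The 7 genes Gstm1 to Gstm7, with the few counts of Gstm3 included, summed to 309.7, 249 and 339 CPM in MI4KO and 268, 293 and 295 CPM in MI4OE, with overlap between groups.

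The other transferases were lower in mean TPM than Gstp1, Gstp2 and Gstm1, and some followed MI4OE replicate 1. Gstm7 had 0.409 to 2.05 CPM in MI4KO and 0.839 to 4.72 CPM in MI4OE, Gsta4 had 8.24 to 9.77 and 6.50 to 22.9 CPM, and Gsto1 had 25.5 to 33.3 and 23.2 to 65.6 CPM. Log2 fold changes were 1.21 for Gstm7, 0.60 for Gsta4 and 0.47 for Gsto1, and 0.21, 0.0010 and -0.071 without MI4OE replicate 1. Without MI4KO replicate 3 the value of Gstm7 was 2.30 with an unadjusted p of 0.0260, and without MI4OE replicate 2 those of Gsta4 and Gsto1 were 0.94 and 0.74 with unadjusted p-values of 0.0147 and 0.0407. Gstk1, a mitochondrial and peroxisomal enzyme, and the theta-class genes Gstt2 and Gstt3 had log2 fold changes of 0.16, 0.38 and 0.33, each smaller than its standard error. Gstm2, Gstm4 and Gstm5 had 0.079, -0.37 and -0.28. Gstm6 had 0 to 4.44 expected counts in MI4OE and 1 to 16.0 in MI4KO and was below the count filter of the test over all genes. With no filter its log2 fold change was -1.999 (SE 1.1) with an unadjusted p of 0.0975, over counts near the limit of detection in MI4OE.

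NRF2 itself and its stress enzymes had group means close to each other. Nfe2l2 had 43.5, 29.2 and 25.8 CPM in MI4KO and 35.1, 28.2 and 28.8 CPM in MI4OE, with MI4KO replicate 1 the highest and MI4KO replicate 3 the lowest. Its log2 fold change was -0.095 with a 95% interval from -0.62 to 0.43. Nqo1, a quinone reductase widely used as a readout of NRF2, had 28.8, 25.8 and 23.8 CPM in MI4KO and 23.2, 25.2 and 25.4 CPM in MI4OE. Its means were 26.1 ± 2.53 CPM (SD, n = 3) and 24.6 ± 1.19 CPM (SD, n = 3), and the 95% interval of its log2 fold change, from -0.42 to 0.25, lay within 1.5-fold.

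Hmox1, the inducible haem oxygenase, had 9.21, 4.40 and 4.57 CPM in MI4KO and 5.21, 4.05 and 5.74 CPM in MI4OE. Only MI4KO replicate 1 stood out, as it did for Srxn1 and Nfe2l2. The log2 fold change of Hmox1 was -0.28 (SE 0.33). Without that library it was 0.15 for Hmox1 and 0.15 for Nfe2l2.

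A wider list of 85 pathway genes, holding thioredoxin reductases, NADPH-producing enzymes, glutathione transport, NRF2 partners and other targets, had 80 symbols in the table and 75 tested. Of these 24 were higher in MI4OE and 51 lower, with a median log2 fold change of -0.14 and none past an adjusted p of 0.05. Over all 12660 genes tested, 6327 were higher and 6333 lower, with a median of -0.000043. At an unadjusted p under 0.05, 2 genes of the list were higher and 4 lower, a total of 6 of 75, beside 7.58% of all genes tested. Txnrd1 and Txnrd2, the cytosolic and mitochondrial thioredoxin reductases, had log2 fold changes of -0.22 and -0.040. Txnip, which binds thioredoxin, had 0.30 (SE 0.46), and Keap1, the NRF2 repressor, had -0.076 (SE 0.17). Slc7a11, the cystine importer, had no more than 0.0699 CPM in any library, under the limit of detection.

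The list held 5 enzymes of the pentose phosphate pathway, a source of the NADPH that glutathione reductase and thioredoxin reductases spend. Tkt and Pgd were past an unadjusted p of 0.05 and G6pdx, Taldo1 and Pgls were not. Tkt, transketolase, had 17.5, 39.9 and 20.9 CPM in MI4KO and 9.20, 12.8 and 9.85 CPM in MI4OE. Every MI4KO library was above every MI4OE library, and the log2 fold change was -1.29 ± 0.32 (SE; adjusted p = 0.495, edgeR quasi-likelihood). Leaving out each library in turn gave -1.52 to -0.86, with unadjusted p-values from 0.00291 to 0.0174.

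Pgd, which makes NADPH from 6-phosphogluconate, had 14.0, 17.0 and 21.9 CPM in MI4KO and 12.99, 13.1 and 12.2 CPM in MI4OE. Its log2 fold change of -0.47 had an unadjusted p of 0.0444, which was above 0.05 without any library other than MI4KO replicate 1, from 0.0596 to 0.165. G6pdx, the first enzyme of the pathway, had 2.13, 5.35 and 9.51 CPM in MI4KO and 2.36, 2.87 and 3.09 CPM in MI4OE, with a log2 fold change of -1.03 (SE 0.49), an unadjusted p of 0.0688 and overlapping groups. For Taldo1, transaldolase, and Pgls, a lactonase, the log2 fold changes were -0.0075 (SE 0.17) and 0.22 (SE 0.30).

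The glutamine transporter Slc1a5 had 14.0, 23.8 and 68.0 CPM in MI4KO and 10.3, 11.1 and 10.4 CPM in MI4OE, and its log2 fold change of -1.74 was -0.85 without MI4KO replicate 3. Mt2, a metallothionein, had 123, 6.30 and 6.89 CPM in MI4KO and 5.07, 2.69 and 2.83 CPM in MI4OE, and its log2 fold change of -3.70 was -0.91 without MI4KO replicate 1. In both genes 1 MI4KO library was far above the rest, and the groups did not overlap. Both stayed past 1.5-fold and an unadjusted p of 0.05 without any 1 library, with p-values of 0.0131 for Slc1a5 without MI4KO replicate 3 and 0.0297 for Mt2 without MI4KO replicate 1. MI4KO replicate 3, with the high Slc1a5 value, was the library with the highest adipocyte sum. All 9 adipocyte genes tested, of 10 listed, were lower in MI4OE, 8 of them at an unadjusted p under 0.05, and their part in the values of Tkt, Pgd, G6pdx and Slc1a5 was not tested.

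Idh2, the mitochondrial NADP-linked isocitrate dehydrogenase, had 38.3, 61.6 and 144 CPM in MI4KO and 777, 67.7 and 191 CPM in MI4OE. Ephx1, an epoxide hydrolase, had 5.77, 10.9 and 13.4 CPM in MI4KO and 31.1, 13.2 and 18.4 CPM in MI4OE. These were the 2 higher genes, both highest in MI4OE replicate 1 and both overlapping between groups. Without that library the log2 fold changes went from 2.09 to 0.67 for Idh2 and from 1.06 to 0.65 for Ephx1, with unadjusted p-values of 0.2945 and 0.0938.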

How the data were processed

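The authors, per the labels and methods, prepared stranded mRNA libraries (Kapa), sequenced single 50-base reads, demultiplexed them with bcl2fastq 2.17, mapped them to a UCSC transcript set with Bowtie2 2.1.0 and quantified them with RSEM 1.2.15; the genome build was not given in the sources used here. The deposited expected counts are unnormalized RSEM estimates per gene and transcript, in which a read matching several transcripts is divided among them. TPM, also deposited, are the length-adjusted abundances of RSEM. A deposited table of the authors' comparison holds fold changes, p-values and false discovery rates, which were not used.

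Expected counts were rounded and fitted over the whole table with edgeR 4.0.16 (R 4.3.3): filterByExpr (minimum count 10, minimum total 15) kept 12660 of 24054 genes, with TMM scaling, the quasi-likelihood test at default settings and Benjamini-Hochberg adjustment over all genes tested. CPM are rounded counts over TMM-scaled library sizes. Intervals of fold changes are 95% t intervals of the fit; the limit of 3 counts covers counting error only. DESeq2 1.42.0, edgeR's exact test, limma 3.58.1 on log2(TPM + 1) and log2(TPM + 0.1), other filters and scalings, and fits without each library were alternatives. Only the quasi-likelihood fit at default settings was run on simulated counts, with an assumed spread and no outlying library. The alternatives were not. For 3 against 3 libraries the smallest exact permutation p is 0.1.

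Members, lists and marker genes were chosen with earlier results of these data known. Values in every library are given for members with an unadjusted p under 0.05 or groups that do not overlap, for a fixed set of main enzymes and for the 3 transferases with the highest mean TPM; of the pathway list, genes with an unadjusted p under 0.05 and 6 fixed genes are named, and Taldo1 and Pgls were added after their values were seen. Replicates are numbered by deposition order, without pairing.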

Additional observations from a re-analysis of the deposited data

How the results depend on the processing

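Over all genes, 3 passed an adjusted p of 0.05 with the quasi-likelihood test; DESeq2 called 111, the exact test of edgeR called 108, and the count was 1 (without MI4KO replicate 1) to 4 when a library was left out; limma on log2(TPM + 1) gave 468 genes past 1.5-fold and an unadjusted p of 0.05 in place of 841, and leaving out a library gave 590 (without MI4OE replicate 1) to 1314 (without MI4OE replicate 2). Of the 39 members, that criterion was met by 0 with a mean CPM of at least 1 (which leaves out Gsta3) or limma on log2(TPM + 1), by 2 with limma on log2(TPM + 0.1) (5.13%, against 5.81% of all genes), and by 0 to 5 with a library left out; the 5, without MI4OE replicate 2, were Cat, Gpx8, Gsta3, Gsta4 and Gsto1 (12.8%, against 10.2% of all genes), and the 3 without MI4KO replicate 2 were Gpx1, Srxn1 and Gsta3 (7.69% against 6.33%), shares near those of all genes. In none of the 16 alternatives did any member pass an adjusted p of 0.05.

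Taken relative to the median of all genes in the same fit, a check added after seeing the data, direction held in every alternative for 18 members, changed only when a library was left out for 15, and changed in another alternative for 6, all near 0 (Gpx3, Gsr, Gstm1, Gstp1, Prdx1 and Txn1). With total counts and no TMM, which moved the median of all genes to 0.090, log2 fold changes of members near 0 turned positive: Gpx3 0.028, Gpx4 0.051, Prdx1 0.082, Txn1 0.10, Gss 0.031, Gsr 0.083, Gstm1 0.068, Gstp1 0.094, Nfe2l2 0.024 and Nqo1 0.0090. With limma on log2(TPM + 1) and log2(TPM + 0.1) the values were 0.17 and 0.17 for Gpx3, 0.047 and 0.048 for Prdx1, 0.051 and 0.052 for Txn1, 0.049 and 0.052 for Gsr, 0.063 and 0.063 for Gstm1, and 0.059 and 0.059 for Gstp1. The cause was not tested. Leaving out each library gave ranges that crossed 0, of -0.069 to 0.28 for Sod1, -1.15 to 0.25 for Sod3, -0.37 to 0.30 for Gpx3, -0.43 to 0.11 for Gpx4, -0.13 to 0.039 for Prdx1, -0.058 to 0.21 for Prdx3, -0.021 to 0.80 for Prdx5, -0.054 to 0.41 for Prdx6, -0.18 to 0.12 for Txn1, -0.13 to 0.39 for Txn2, -0.35 to 0.053 for Gss, -0.078 to 0.10 for Gsr, -0.15 to 0.35 for Gstk1, -0.10 to 0.13 for Gstm1, -0.031 to 0.17 for Gstm2, -0.071 to 0.74 for Gsto1, -0.18 to 0.11 for Gstp1, -0.019 to 0.72 for Gstt1, -0.012 to 0.93 for Gstt3, -0.26 to 0.15 for Nfe2l2 and -0.48 to 0.15 for Hmox1. Gstm6 entered 3 of these fits through its high MI4KO libraries alone, so their values are not given. No paired analysis was possible because the labels give no replicate numbers shared between groups.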

Other observations

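The files per transcript listed more than 1 transcript for 4 of the kept members. Gpx4 counts came almost wholly from NM_008162, with 99.5% to 99.9% of the gene in each library. Gstm4 was divided between NM_026764 and NM_001160411, and the share of the latter was 9.3% to 23.3% in the MI4KO libraries and 27.7%, 40.4% and 50% in those of MI4OE. The shares did not overlap between groups while the gene's level did. This was noticed after the values were seen and was not tested. How often such shares separate over all genes was not counted, so the separation cannot be read as particular to Gstm4. The counts behind the shares were 39.7 to 158 for NM_001160411, and reads of this gene are shared with other mu-class genes. Gss went from 0% to 72.2% for NM_001291111 with no order by group.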
